A study of Bos taurus with 7 samples.

Results

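The genes described are those of glutathione and thioredoxin metabolism and of the NRF2 pathway, measured in the rumen epithelium of Holstein calves on single-colour Agilent arrays. A probe was taken as a member when its gene name in the scanner output began with GPX, GST, MGST, PRDX, TXN, SOD, GCL or GLRX in the pattern of these families, or was GSR, GSS, CAT, NQO1, NQO2, HMOX1, HMOX2, SRXN1, NFE2L2 or KEAP1. This selected 69 of the 15008 probes on the array, for 67 of 14952 gene names. GSTA3 and GSTM1 each had 2 probes, and no probe carried the name GPX2. The rule used names alone and no measured value, but it was chosen with earlier results of these data known.

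The HAY group was provided with forage (calves 9, 10 and 13, n = 3) and the CON group was not (calves 8, 11, 12 and 14, n = 4). All 7 were Holstein calves, and the design names 3 weeks after weaning. The labels give no age and no other treatment, and what else the CON calves ate is not stated for each sample. Each calf gave 1 array, and the title of the series places the question in the adaptation of the epithelium to forage and starter during weaning.

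Cells hold their proteins and lipids in a reduced state through a pair of NADPH-driven systems. In the first, glutathione is built by glutamate-cysteine ligase and glutathione synthetase, spent by peroxidases, transferases and glutaredoxins, and returned to its reduced form by glutathione reductase. In the second, thioredoxin reductase reduces thioredoxin, which in turn serves peroxiredoxins and other thiol proteins. The transcription factor NRF2, encoded by NFE2L2, is held at a low level by KEAP1 and, once released, switches on many genes of both systems. The rumen epithelium is a stratified, keratinised lining that absorbs fermentation acids and meets reactive products of the diet and of microbes.

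Each array held 15110 spots besides the control spots, of which 81.5 to 84.6% were well above background. Their median signal lay between 182 and 241 intensity units. A single slide carried all arrays, scanned once, and the number of arrays limits the precision. The HAY arrays all lay in one row of the slide and the CON arrays in the other, so the effects of row and feeding cannot be told apart. Of the 15 epithelial marker genes tested, which include keratins, desmosomal genes and TP63, 14 were well above background on all 7 arrays. The exception, KRT4, was well above it on 0 of 3 HAY and 4 of 4 CON arrays. Its HAY mean was lower by 2.32 log2 units (limma adjusted p = 0.163). HAY means were higher for 10 of the 15 epithelial genes and lower for 5. The mean epithelial score, the mean log2 deviation of those genes from the 7-array mean, ranged from -0.10 to 0.10 in HAY and from -0.14 to 0.21 in CON. All 24 tested stromal genes (smooth muscle and fibroblast) had lower means in HAY, their median difference was -1.25 (log2), and a stromal score averaged from smooth muscle and fibroblast genes was 0.05, -0.91 and -1.33 in HAY and 1.57, 0.51, 0.22 and -0.10 in CON. Endothelial genes had lower HAY means for 10 of 11, with scores of -1.20 to 0.23 in HAY and -0.02 to 0.63 in CON. Myeloid genes had lower HAY means for 7 of 8, and their scores did not overlap, at -0.62 to -0.31 in HAY and 0.23 to 0.62 in CON. Lymphocyte genes had lower HAY means for 3 of 10, with scores of -0.05 to 0.02 and -0.19 to 0.18. The part of these other cell types in the members' differences was not tested. In bulk tissue, fewer cells of a type and less RNA per cell cannot be told apart.

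Values are log2 signals relative to the 75th percentile of the same array, given in the order HAY calves 9, 10 and 13 and then CON calves 8, 11, 12 and 14. They compare calves for one probe and not one probe with another. A difference is the HAY mean minus the CON mean on the log2 scale, with the standard error, p and 95% confidence interval of limma. An adjusted p is the Benjamini-Hochberg value over all 12604 tested probes, and a probe was tested when the scanner software called it well above background on 3 or more of the 7 arrays.

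Each value is the signal of 1 probe of 60 bases, and apart from GSTA3 and GSTM1 each member gene had 1 probe. The first 30 bases of the probes behind the results that follow are printed 5′ to 3′ as the deposited files give them. Positions are those of the files, on UMD_3.1. Whether a probe lies in a coding exon or a UTR was not determined, as no gene models of that build were used here. The first set holds the 6 members with an unadjusted p under 0.05.
MGST2 (chr17:18331381-18331440, minus strand): ttttttcctcgggtataatgggattgatat
GSTT3 (chr17:73315293-73315352, plus strand): ttgcacgctgacttccatgtgaactctgga
TXNRD1 (chr5:68291397-68295411, plus strand): aatatcaaagacaatgaacgtgttgtgggc
NQO1 (chr18:36911380-36911439, minus strand): gcctatatgaatgtccttcttccttcaact
GPX7 (chr3:94324170-94324229, minus strand): tatgaaagtgccaagggcagtgccagctaa
GPX8 (chr20:23975686-23975745, minus strand): cactagaccactgtttggatttcagatact
The TXNRD1 position spans more than the 60 bases of its probe, so its bases are not contiguous in the genome.

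The second set holds the 3 alpha-class transferase probes that share a cluster on chromosome 23 and had wide ranges between calves. It is shown because the values of GSTA2 and both GSTA3 probes differ although their genes are neighbours and relatives.
GSTA2 (chr23:24823652-24823711, minus strand): cacgtataaaatcacgatctcctcctagaa
GSTA3, first probe (chr23:24877993-24878052, minus strand): ccacctgctgaaaaagatgccaagctgacc
GSTA3, second probe (chr23:24935522-24935581, minus strand): taacgtgtccaaaaagaataaaaccatatt
The first of the GSTA3 probes carries an accession that RefSeq now assigns to GSTA1. In the best ungapped alignment the GSTA3 probes shared 17 of 29 overlapping bases (58.6%). The closest pair within any member family was TXNRD1 and TXNRD3, with 33 of 51 bases (64.7%). These are probe comparisons only and do not give the similarity of the whole transcripts.

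Of the 69 member probes, 63 were tested and 60 were well above background on all 7 arrays. The other 6 were not tested. The probes of GPX6, GSTZ1, TXNDC3, TXNDC8 and the second GSTM1 probe were well above background on 0 of 7 arrays, and that of GSTA5 on 2. GSTZ1 encodes a transferase of tyrosine breakdown and GPX6 an olfactory peroxidase. A probe that stays at background says nothing of whether another stretch of the same transcript would have been detected.

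No member passed an adjusted p of 0.05 between HAY and CON with limma, and the lowest adjusted p among them was 0.242. Over all tested probes, 1 of 12604 passed (0.00793%). At an unadjusted limma p under 0.05 there were 6 members of 63 (9.52%), against 13.9% of all tested probes. Higher HAY means made up 3 of them, MGST2, TXNRD1 and NQO1, and over all probes 6.78% were of that kind. The 3 with lower HAY means were GSTT3, GPX7 and GPX8, against 7.16% of all probes. The members' share was thus near or below the background in each direction. Counts by role given further on rest on few probes each and stand beside the 13.9% of all tested probes.

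Non-overlap of the groups gave a like count. The HAY and CON calves did not overlap for 7 members (11.1%), against 11.8% of all tested probes. HAY lay above CON for MGST2, TXNRD1, NQO1, GSTK1, SRXN1 and TXNL4B, and below it for GSTT3. HAY means were higher for 34 members and lower for 29, where 54.5% of all tested probes had higher HAY means. That balance moved with the scaling and with single calves. With median centring 41 members and 63.0% of all tested probes had higher HAY means, without CON calf 14 it was 41 members and 54.2%, and without HAY calf 13 it was 30 members and 54.5%. The median difference was 0.02 for the members and 0.03 for all tested probes, and the median absolute difference 0.20 and 0.21. The difference was under 0.5 in size for 46 members and at least 1 for 4, namely GPX7, GPX8, GSTT4 and NQO1.

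**Figure D1:**
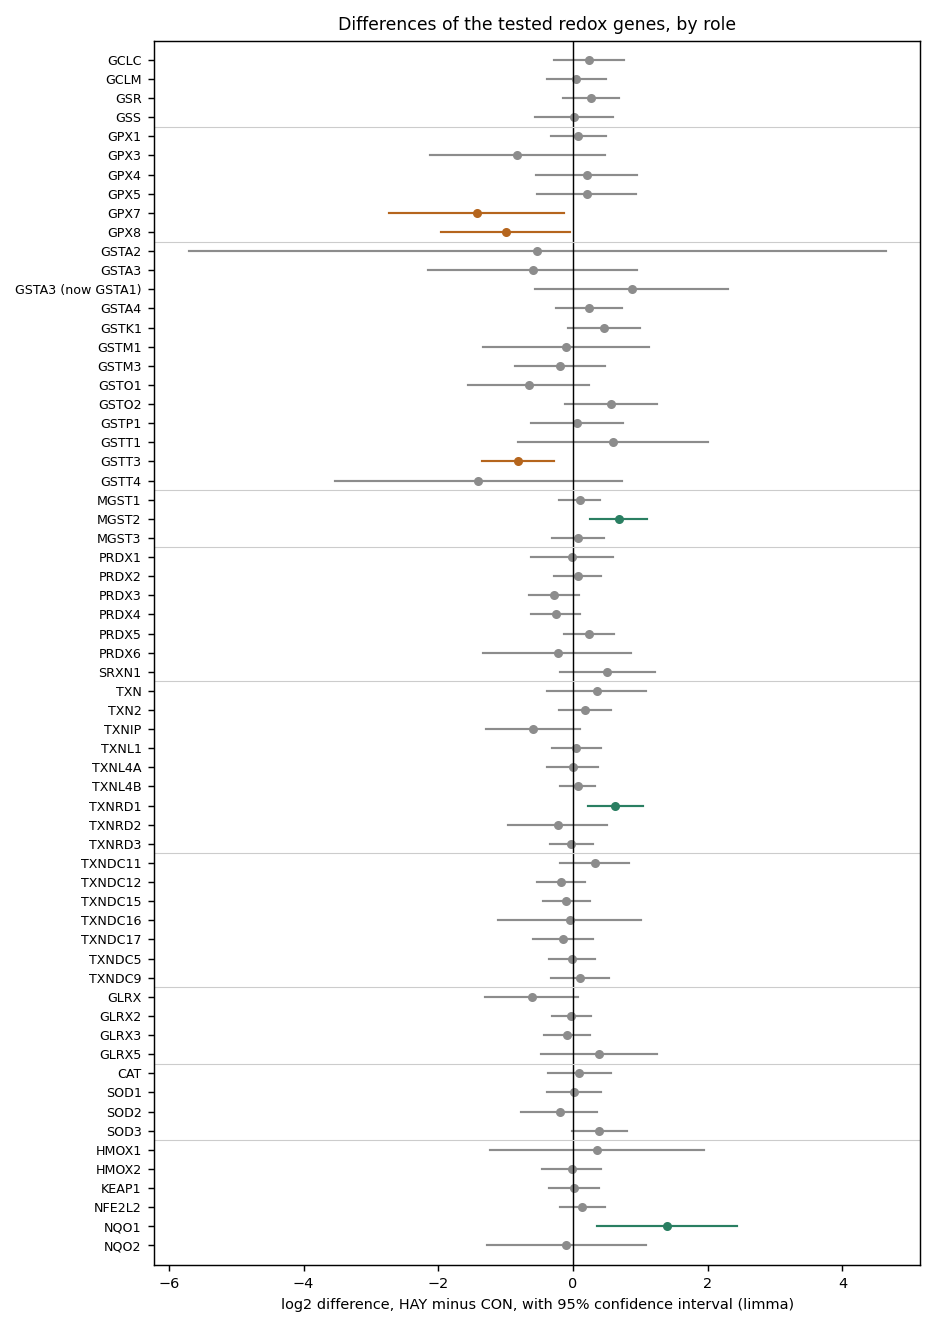
Log2 difference (HAY minus CON, horizontal axis) of the 63 tested member probes with its limma 95% confidence interval, one row per probe, grouped by role. The differences run from -1.43 for GPX7 to 1.39 for NQO1, and most intervals include 0.

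**Figure D2:**
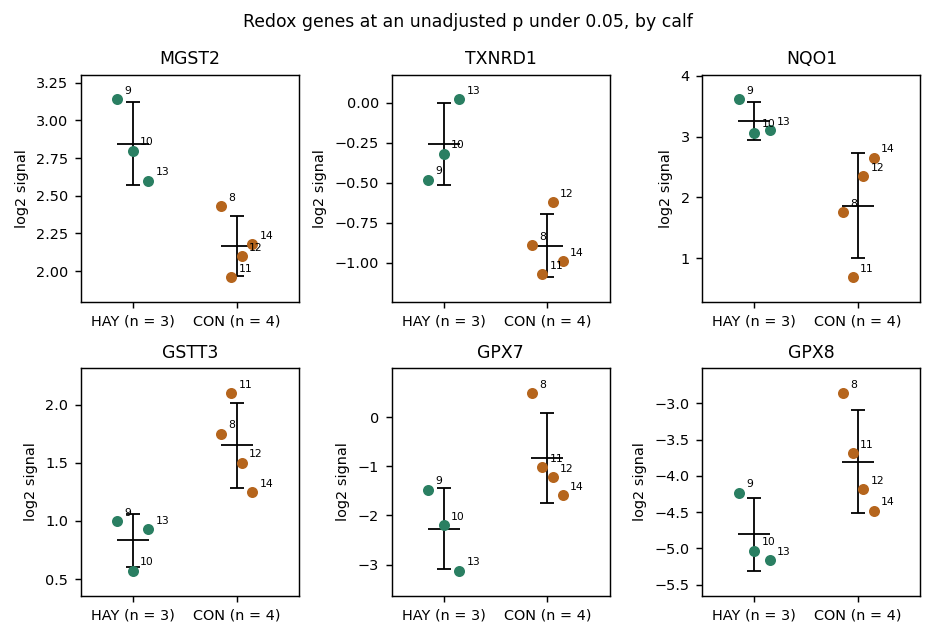
Log2 signal (vertical axis) of the 6 members with an unadjusted p under 0.05 in each calf of HAY (n = 3) and CON (n = 4), with the mean and SD and the calf number beside each point. The groups do not overlap for MGST2, TXNRD1, NQO1 and GSTT3 and overlap for GPX7 and GPX8.

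Among the NRF2 pathway genes, NFE2L2 and KEAP1 themselves had differences near 0. NFE2L2, which encodes the transcription factor, was at -1.44, -1.40 and -1.57 in HAY and -1.63, -1.49, -1.46 and -1.85 in CON. Its difference was 0.14 (SE 0.14), with an interval from -0.20 to 0.47 (limma adjusted p = 0.710). KEAP1, its cytoplasmic repressor, was at -3.15, -2.73 and -2.63 in HAY and -2.94, -2.84, -2.79 and -2.81 in CON, a difference of 0.01 with an interval from -0.36 to 0.38. The groups overlapped for both genes. NRF2 is regulated mainly through the stability of its protein, which an RNA array does not measure.

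NQO1, a quinone reductase that is a classical NRF2 target, gave the largest positive difference. It was at 3.61, 3.06 and 3.1 in HAY and 1.76, 0.69, 2.35 and 2.65 in CON. Every HAY calf lay above every CON calf, and the CON calves spread over almost 2 log2 units, from calf 11 at 0.69 to calf 14 at 2.65. The means were 3.26 ± 0.31 (SD, n = 3) and 1.86 ± 0.87 (SD, n = 4), 2.62-fold higher in HAY. The difference was 1.39 (SE 0.45), its interval ran from 0.35 to 2.44 and the limma adjusted p was 0.275. Without HAY calf 9 it was 1.21 (limma adjusted p = 0.283) and its unadjusted p was no longer under 0.05. The same held without HAY calf 13 and CON calf 8 together, at a difference of 1.44 (limma adjusted p = 0.832).

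The remaining genes placed in this group, HMOX1, NQO2 and HMOX2, gave smaller differences than NQO1. HMOX1 encodes the inducible haem oxygenase. It was at 2.37, 2.34 and 3.66 in HAY and 0.81, 2.11, 3.16 and 3.66 in CON, and the groups covered much the same values apart from CON calf 8. Its difference of 0.35 had an interval from -1.24 to 1.95, so a 2-fold change in either direction lies inside it. The sign of the HMOX1 difference turned without CON calf 8 (-0.19), without HAY calf 13 (-0.08) and without both (-0.62). The fit blocked on slide column gave the same value as leaving out CON calf 8, which was alone in its column. NQO2, a related quinone reductase, differed by -0.10 and the constitutive oxygenase HMOX2 by -0.02. HMOX2 ranged only from 1.17 to 1.79 over the 7 calves.

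The 4 genes of glutathione synthesis and recycling had small differences, each with a higher HAY mean and with 0 of 4 at an unadjusted p under 0.05. Over all tested probes, 54.5% had higher HAY means and 13.9% an unadjusted p under 0.05. With normexp background correction 3 of 4 had higher HAY means, as GCLC then gave -0.04. GCLC, the catalytic subunit of the rate-limiting ligase, was at -5.34, -5.58 and -5.94 in HAY and -6.20, -5.76, -6.02 and -5.46 in CON, a difference of 0.24 (interval -0.29 to 0.76). GCLM, the modifier subunit, was at 1.44, 1.53 and 0.87 in HAY and 1.17, 1.29, 1.09 and 1.35 in CON, a difference of 0.05 (interval -0.38 to 0.49). HAY calf 13 had the lowest GCLM value of all calves and the other HAY calves the highest. GSS, which adds glycine to complete glutathione, was at -0.24, 0.54 and 0.34 in HAY and -0.14, 0.00, 0.42 and 0.52 in CON, a difference of 0.01. GSR, the reductase that regenerates glutathione with NADPH, was at 6.04, 5.75 and 6.28 in HAY and 5.54, 5.65, 5.98 and 5.85 in CON. Its difference was 0.27 (SE 0.18, limma adjusted p = 0.534), and the groups overlapped for all 4 genes.

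GPX7 and GPX8, which encode peroxidases of the endoplasmic reticulum, gave the largest negative differences among the glutathione peroxidases. They were the 2 of 6 tested probes of this role (33.3%) at an unadjusted p under 0.05, against 13.9% of all tested probes. GPX7 was at -1.48, -2.20 and -3.13 in HAY and 0.49, -1.02, -1.22 and -1.59 in CON. HAY calf 9 lay within the CON range, and the extremes were HAY calf 13 and CON calf 8. The means were -2.27 ± 0.83 (SD, n = 3) and -0.83 ± 0.92 (SD, n = 4), a difference of -1.43 (SE 0.56, interval -2.74 to -0.13, limma adjusted p = 0.327). GPX8 was at -4.23, -5.03 and -5.16 in HAY and -2.86, -3.69, -4.18 and -4.48 in CON. Again HAY calf 9 lay within the CON range, and the difference was -1.0 (SE 0.41, interval -1.96 to -0.05, limma adjusted p = 0.343). With normexp background correction the GPX8 difference was -0.64.

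Both peroxidase genes ordered the 7 calves exactly as the stromal score did, from CON calf 8 at the top through CON calves 11 and 12, HAY calf 9, CON calf 14 and HAY calf 10 to HAY calf 13. Without the calves at both ends of that score, HAY calf 13 and CON calf 8, the difference was -0.56 for GPX7 (limma adjusted p = 0.876) and -0.51 for GPX8 (limma adjusted p = 0.899). These calves also hold the extreme values of both genes, so leaving them out had to shrink both differences. Neither gene then had an unadjusted p under 0.05, and the share of all tested probes that did was 5.93%, against 13.9% with all calves. Single calves also moved both genes past that limit. Leaving out CON calf 11, HAY calf 10 or HAY calf 13 in turn gave a GPX7 difference of -1.5, -1.47 or -1.0, and those of GPX8 were -0.97, -0.89 and -0.83. Without CON calf 8 the GPX8 difference was -0.69, also above the limit. The part of the stromal markers in these differences was not tested.

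**Figure D3:**
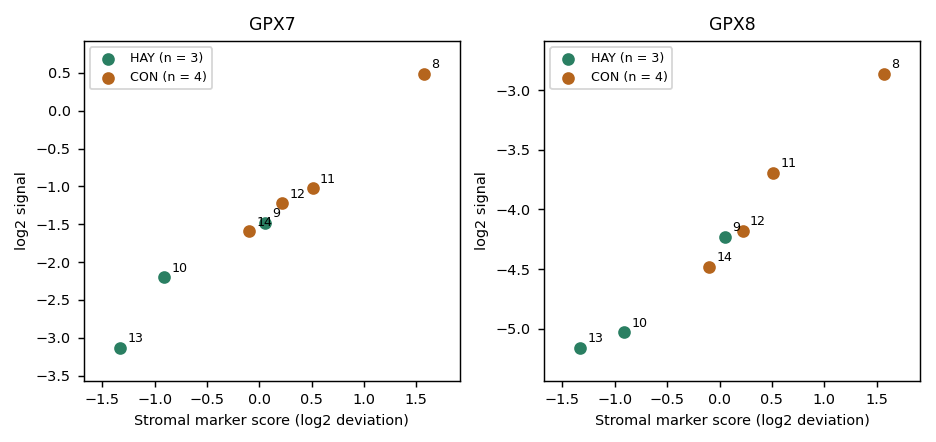
Log2 signal of GPX7 and of GPX8 (vertical axes) against the stromal marker score (horizontal axis, log2 deviation averaged from smooth muscle and fibroblast genes) in the 3 HAY and 4 CON calves, with calf numbers. HAY calf 13 has the lowest score, -1.33, and CON calf 8 the highest, 1.57, and they also hold the lowest and highest values of both genes.

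The other peroxidases did not separate the groups. GPX1, the widespread cytosolic selenoenzyme, was at -1.40, -1.07 and -1.61 in HAY and -1.60, -1.59, -1.33 and -1.24 in CON, a difference of 0.08 (interval -0.33 to 0.49). GPX4, which reduces lipid hydroperoxides in membranes, was at 1.89, 1.45 and 2.52 in HAY and 1.21, 1.64, 1.91 and 2.26 in CON, a difference of 0.20 (interval -0.55 to 0.95). HAY calf 13 held the highest GPX4 value and CON calf 8 the lowest. GPX3, the secreted form, was at -3.39, -3.43 and -1.55 in HAY and -2.94, -1.36, -1.49 and -2.06 in CON. HAY calves 9 and 10 lay below every CON calf while HAY calf 13 lay inside the CON range. The difference was -0.83 (SE 0.56, limma adjusted p = 0.534), and without HAY calf 13 it was -1.45, at an unadjusted p under 0.05 (limma adjusted p = 0.560). Without both HAY calf 13 and CON calf 8 it was -1.78 (limma adjusted p = 0.274). GPX5 differed by 0.20 with the main processing and by -0.01 with normexp.

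Of the 13 soluble glutathione transferase probes tested, 6 had higher and 7 lower HAY means. An unadjusted p under 0.05 was found for 1 (7.69%), against 13.9% of all tested probes. These enzymes conjugate glutathione to electrophiles. GSTT3, of the theta class and listed by RefSeq as GSTT2, was at 1.0, 0.57 and 0.93 in HAY and 1.75, 2.10, 1.5 and 1.25 in CON. Every HAY calf lay below every CON calf. The means were 0.83 ± 0.23 (SD, n = 3) and 1.65 ± 0.36 (SD, n = 4), 1.77-fold lower in HAY (difference -0.82, SE 0.23, interval -1.35 to -0.29, limma adjusted p = 0.249).

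The 3 theta-class probes lay within 18.2 kb on chromosome 17 and did not share a pattern. GSTT1 was at 1.43, 1.10 and 0.52 in HAY and 1.19, 1.65, -0.76 and -0.40 in CON, so CON calves 12 and 14 lay below the rest. GSTT4 was at -4.77, -4.26 and -4.08 in HAY and -5.06, -0.93, -3.87 and -2.0 in CON, with CON calves 11 and 14 above the rest. Their differences were 0.59 (SE 0.61) and -1.41 (SE 0.91), and each interval included 0. Without CON calf 8 the GSTT4 difference was -2.11, at an unadjusted p under 0.05 (limma adjusted p = 0.456). GSTT1, GSTT4 and GSTA2 were singled out after their values were seen, for their spread.

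The widest range of all members belonged to GSTA2, an alpha-class transferase gene. The 5 alpha-class probes lay within 140 kb on chromosome 23. GSTA2 was at -6.74, 0.69 and -0.25 in HAY and -4.63, -4.03, 1.10 and 1.29 in CON. Calves 8, 9 and 11 were low and calves 10, 12, 13 and 14 high, with both feeding groups on each side. The range of 8.03 log2 units was reached by 0.0715% of all tested probes, and the difference between groups was -0.53 (SE 2.22, interval -5.70 to 4.64). Its sign turned when single calves were left out, to 1.79 when HAY calf 9 was omitted and to 0.36 or 0.42 when CON calf 12 or 14 was. The 3 low calves occupied slide columns 1 and 2 and the 4 high calves columns 3 and 4, and the part of slide position was not tested. Compared within a column, HAY minus CON was -2.70, -0.41 and -1.54 in columns 2, 3 and 4.

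The other alpha-class probes shared only part of this pattern. The GSTA3 probe now assigned to GSTA1 was at 5.79, 4.93 and 4.97 in HAY and 4.69, 5.09, 2.59 and 5.09 in CON. Here CON calf 12 stood alone at the low end, and the difference was 0.87 (SE 0.62, limma adjusted p = 0.559). The second GSTA3 probe was at -7.72, -5.56 and -5.54 in HAY and -7.03, -5.32, -5.11 and -5.22 in CON. Calves 8 and 9 were low, as they were for GSTA2, while calf 11 was not. Only 2 of the 3 HAY arrays had this second probe well above background. Its difference was -0.60 (SE 0.67) and, with normexp, -0.30. GSTA4, which acts on lipid aldehydes, ranged only from 1.77 to 2.72 and differed by 0.24.

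**Figure D4:**
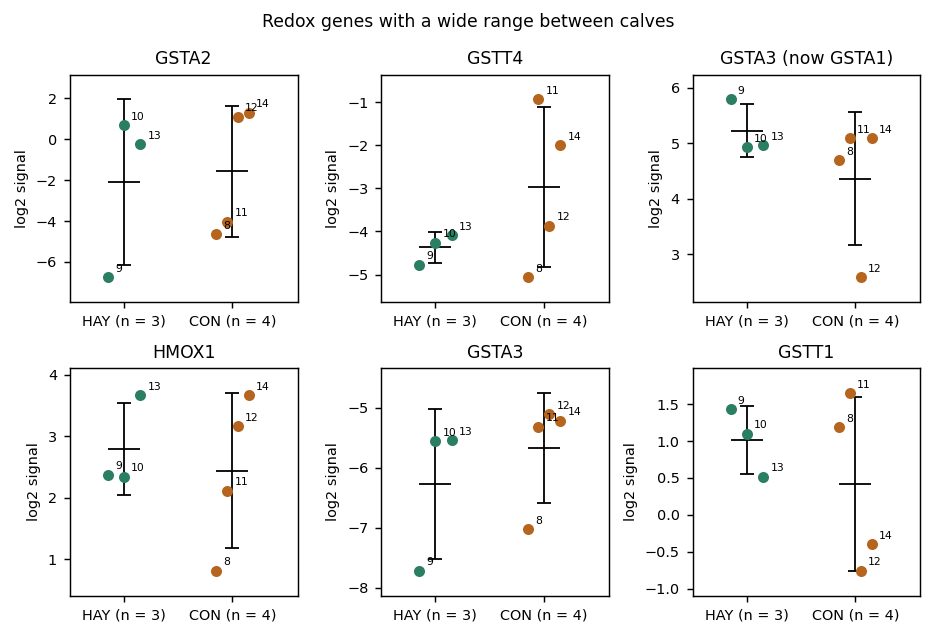
Log2 signal (vertical axis) of 6 member probes with a wide range that are not in the plot of the lowest p, in each calf of HAY (n = 3) and CON (n = 4), with the mean and SD and the calf number beside each point. GSTA2 runs from -6.74 in HAY calf 9 to 1.29 in CON calf 14, and neither feeding group stands on one side.

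Mu-, pi-, kappa- and omega-class transferases gave no difference past the adjusted threshold. GSTM1, listed by RefSeq under a locus name, was at 0.38, 0.33 and 0.51 in HAY and -0.01, -0.36, 0.37 and 2.04 in CON. CON calf 14 stood above the rest, and the difference was -0.10 (SE 0.53). GSTP1 encodes the pi-class enzyme abundant in many epithelia and is also listed by RefSeq under a locus name. It was at 4.37, 3.69 and 4.28 in HAY and 4.10, 3.44, 4.11 and 4.59 in CON, a difference of 0.06 (interval -0.62 to 0.74). GSTK1, a mitochondrial and peroxisomal enzyme, was at -0.47, -0.49 and 0.36 in HAY and -0.84, -0.54, -0.56 and -0.69 in CON. Its groups did not overlap, but HAY calves 9 and 10 lay within 0.1 log2 units of CON calves 11 and 12. The GSTK1 difference was 0.46 (SE 0.23, limma adjusted p = 0.412) and, without HAY calf 13, 0.18.

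The omega-class genes, whose products reduce thiol adducts, lay 22 kb apart at most on chromosome 26 and had differences of opposite sign. GSTO2 was at -7.15, -6.53 and -6.37 in HAY and -7.44, -7.47, -7.51 and -6.58 in CON, a difference of 0.57 (SE 0.29, limma adjusted p = 0.428). Leaving out CON calf 14 or HAY calf 9 gave 0.79 or 0.80, both at an unadjusted p under 0.05. Only 2 of the 4 CON arrays had it well above background, and with normexp the difference was -0.04. GSTO1 differed by -0.66 (SE 0.39), and without CON calf 11 by -0.99, at an unadjusted p under 0.05 (limma adjusted p = 0.301).

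The 3 microsomal transferases, membrane enzymes that act on lipid peroxides and leukotrienes, had higher HAY means, as did 54.5% of all tested probes. An unadjusted p under 0.05 was found for 1 of the 3, against 13.9% of all tested probes. With quantile normalization 2 of 3 had higher HAY means. MGST2 was at 3.14, 2.80 and 2.60 in HAY and 2.43, 1.96, 2.10 and 2.18 in CON. Every HAY calf lay above every CON calf. The means were 2.85 ± 0.27 (SD, n = 3) and 2.17 ± 0.20 (SD, n = 4), 1.6-fold higher in HAY. The difference was 0.68 (SE 0.18, interval 0.25 to 1.10, limma adjusted p = 0.242), the lowest adjusted p of the members. MGST1 was at 5.27, 5.10 and 5.07 in HAY and 4.99, 5.02, 5.21 and 4.96 in CON, a difference of 0.10 with an interval from -0.21 to 0.40. MGST3 differed by 0.07.

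TXNRD1 encodes the cytosolic thioredoxin reductase, a selenoenzyme and NRF2 target. It was at -0.48, -0.32 and 0.02 in HAY and -0.89, -1.07, -0.62 and -0.99 in CON. The groups did not overlap, and HAY calf 9 and CON calf 12 were nearest to each other. The means were -0.26 ± 0.26 (SD, n = 3) and -0.89 ± 0.19 (SD, n = 4), 1.55-fold higher in HAY (difference 0.63, SE 0.18, interval 0.22 to 1.04, limma adjusted p = 0.255). Without HAY calf 13 and CON calf 8 together it was 0.49 (limma adjusted p = 0.835), no longer at an unadjusted p under 0.05. The mitochondrial TXNRD2 differed by -0.23 and TXNRD3 by -0.03.

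The substrate of this reductase, TXN, was at 4.63, 4.60 and 4.98 in HAY and 4.20, 3.88, 4.22 and 5.22 in CON. The HAY calves lay above 3 of the 4 CON calves, and CON calf 14 lay above them all. The difference was 0.35 (SE 0.31, limma adjusted p = 0.654), and without CON calf 14 it was 0.63, at an unadjusted p under 0.05 (limma adjusted p = 0.209). TXNIP, which binds and inhibits thioredoxin, was at -2.21, -2.23 and -2.83 in HAY and -1.25, -1.80, -1.77 and -2.49 in CON, a difference of -0.60 (SE 0.30, limma adjusted p = 0.417). HAY calf 13 was lowest and CON calf 8 highest, as for the stromal score, and the part of the stromal markers was not tested. Without CON calf 14 the TXNIP difference was -0.82, at an unadjusted p under 0.05 (limma adjusted p = 0.217). Of all 9 probes for thioredoxins, reductases, TXNIP and related TXNL proteins, 5 had higher and 4 lower HAY means, and 1 had an unadjusted p under 0.05. TXNL4B, a splicing-associated relative of thioredoxin, had groups that did not overlap at a difference of only 0.07.

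Peroxiredoxins, most of which remove hydrogen peroxide at the expense of thioredoxin, and sulfiredoxin had 0 of 7 probes at an unadjusted p under 0.05. PRDX1 was at 2.95, 2.81 and 3.28 in HAY and 3.12, 2.55, 2.83 and 3.62 in CON, a difference of -0.01 (interval -0.63 to 0.60). PRDX3, the mitochondrial form, was at 1.09, 0.59 and 0.64 in HAY and 1.10, 1.05, 0.99 and 1.09 in CON, a difference of -0.28 (SE 0.16, limma adjusted p = 0.465). The CON calves lay close together for PRDX3, between 0.99 and 1.10, and HAY calf 9 lay among them. Without HAY calf 9 the difference was -0.44, at an unadjusted p under 0.05 (limma adjusted p = 0.174). PRDX5 was at 5.18, 5.07 and 4.99 in HAY and 4.56, 4.79, 5.08 and 4.93 in CON, a difference of 0.24 (SE 0.16). PRDX6, which also has phospholipase activity, was at 5.08, 5.59 and 5.49 in HAY and 4.42, 5.73, 5.65 and 6.67 in CON, a difference of -0.23 (SE 0.47). The CON calves held both the lowest and the highest PRDX6 value.

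SRXN1, which repairs over-oxidised peroxiredoxins and is another NRF2 target, was at -4.20, -4.11 and -4.18 in HAY and -5.49, -4.26, -4.65 and -4.28 in CON. The groups did not overlap, although CON calves 11 and 14 lay within 0.1 log2 units of HAY calf 9. The difference was 0.51 (SE 0.30, limma adjusted p = 0.481), without CON calf 8 it was 0.24, and with normexp it was 0.20.

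Thioredoxin-domain proteins (TXNDC), many of them folding enzymes of the endoplasmic reticulum, had 7 probes tested, with differences from -0.18 to 0.32 and 0 at an unadjusted p under 0.05. Glutaredoxins, which remove glutathione from protein thiols, had 0 of 4. GLRX was at 3.60, 3.65 and 3.94 in HAY and 4.41, 3.72, 4.18 and 5.05 in CON. HAY calves 9 and 10 lay below every CON calf, and CON calf 14 was highest. The GLRX difference was -0.61 (SE 0.30, limma adjusted p = 0.405), and without CON calf 11 it was -0.82, at an unadjusted p under 0.05 (limma adjusted p = 0.327).

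The dismutases convert superoxide to hydrogen peroxide, which catalase removes. SOD1, the cytosolic form, was at 2.56, 2.38 and 2.16 in HAY and 2.38, 2.24, 2.13 and 2.65 in CON, a difference of 0.02 (interval -0.39 to 0.42). SOD2, the mitochondrial form, was at 1.77, 1.56 and 1.38 in HAY and 1.5, 1.39, 2.32 and 1.88 in CON, a difference of -0.20 (interval -0.77 to 0.36). The groups overlapped for both. CAT was at -0.67, -0.68 and -0.52 in HAY and -0.81, -1.08, -0.27 and -0.72 in CON, a difference of 0.09 (interval -0.37 to 0.56). SOD3, the extracellular form, was at -6.68, -6.81 and -6.56 in HAY and -6.75, -6.98, -7.36 and -7.22 in CON. Only 2 of the 4 CON arrays had it well above background. The SOD3 difference was 0.39 (SE 0.18, limma adjusted p = 0.374), and with normexp it was 0.06. Without CON calf 8 it was 0.50, at an unadjusted p under 0.05 (limma adjusted p = 0.456).

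**Figure D5:**
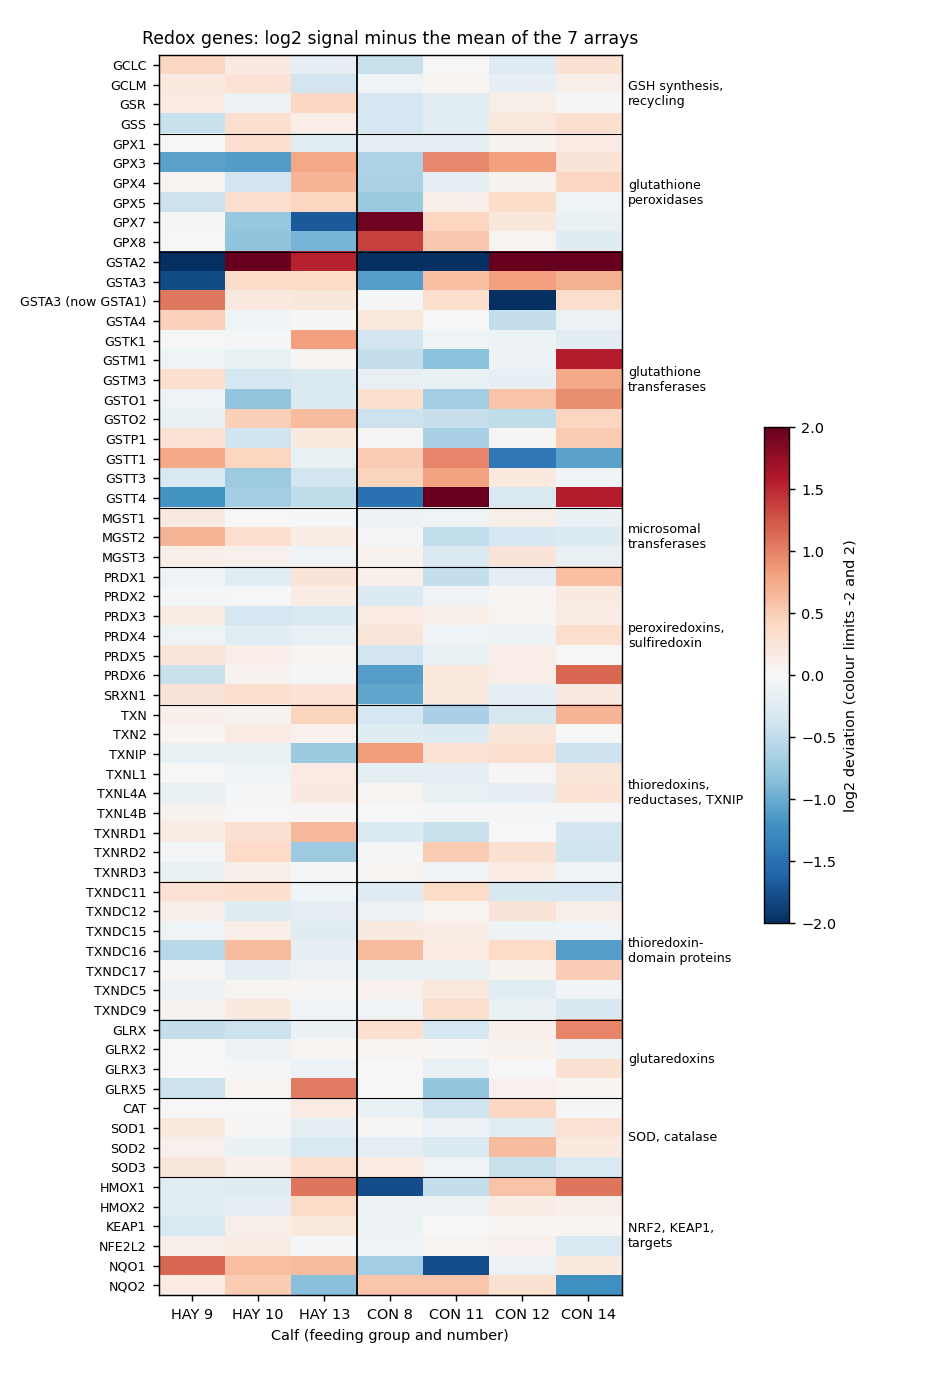
Deviation of each tested member probe from its mean over the 7 arrays (colour, log2), one row per probe grouped by role, one column per calf with HAY and CON side by side. GSTA2 shows the widest contrast and splits calves 8, 9 and 11 from the other 4.

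The spread between calves was described by the range of a probe over the 7 arrays. The median range was 0.95 log2 units for the members and 0.80 for all tested probes. A range of at least 2 was found for 12 members (19.0%) and 11.6% of all tested probes, and a range under 1 for 32 members (50.8%) and 62.9% of all tested probes. After GSTA2, the widest were GSTT4 at 4.14, GPX7 at 3.62 and the GSTA3 probe now assigned to GSTA1 at 3.20. These are descriptions, and no test of the members against other probes was made.

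Calves of the 2 groups that shared a slide column were also compared directly, HAY 9 with CON 11, HAY 10 with CON 12 and HAY 13 with CON 14. For MGST2, TXNRD1, NQO1 and GSTT3, whose groups do not overlap, the sign of these differences is fixed by that, and the values are given for their size. MGST2 gave 1.17, 0.70 and 0.42, NQO1 2.92, 0.70 and 0.45, and TXNRD1 0.58, 0.30 and 1.01. GSTT3 gave -1.10, -0.93 and -0.32, GPX7 -0.46, -0.97 and -1.54, and GPX8 -0.54, -0.85 and -0.68. Limma was also fitted with slide column as a blocking factor. CON calf 8 was alone in column 1, so it did not enter the difference in that fit, which rested on these pairs. The blocked differences are therefore those obtained without CON calf 8, and few residual degrees of freedom remain. In this fit 11 members (17.5%) and 14.4% of all tested probes had an unadjusted p under 0.05. The 11 were the same 6 and GSTA2, SOD3, GSTT4, TXNIP and GLRX. The lowest adjusted p with the block was 0.182.

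Genes around these systems were counted from a list of 94 on the array, of which 88 were tested. No gene of it passed an adjusted p of 0.05, and 11 (12.5%) had an unadjusted p under 0.05, 8 with higher and 3 with lower HAY means. The share over all tested probes was 13.9%, so the list did not exceed the background, and the genes named are those of smallest p in it. QSOX1, a sulfhydryl oxidase that forms disulfides in secreted proteins, was at 7.25, 7.43 and 7.34 in HAY and 6.59, 6.77, 6.65 and 6.58 in CON. Its groups lay apart by several times their SD of 0.09, and the difference was 0.69 (SE 0.12, limma adjusted p = 0.165). NFE2L3, a transcription factor related to NRF2, was at -4.73, -5.17 and -5.24 in HAY and -3.32, -4.13, -3.73 and -4.05 in CON, a difference of -1.23 (SE 0.24, limma adjusted p = 0.165) and, with normexp, of -0.79. AIFM2, which reduces coenzyme Q and limits lipid peroxidation, was at -5.06, -4.81 and -4.53 in HAY and -5.93, -5.64, -5.41 and -5.64 in CON. The groups did not overlap for any of these 3. The AIFM2 difference was 0.86 (SE 0.18, limma adjusted p = 0.211) and, with normexp, 0.25.

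The next 3 of that list by p had groups that did not overlap either. SESN2, a stress-induced sestrin, was at 3.07, 2.55 and 2.99 in HAY and 1.98, 2.46, 2.15 and 2.31 in CON, a difference of 0.65 (SE 0.18, limma adjusted p = 0.256). DUSP1, a phosphatase of MAP kinases, was at 0.65, 0.43 and 0.43 in HAY and 1.51, 1.22, 0.73 and 1.32 in CON, a difference of -0.69 (SE 0.20, limma adjusted p = 0.257). ME1, the malic enzyme that supplies NADPH in the cytosol, was at 4.47, 4.17 and 3.91 in HAY and 3.73, 3.68, 3.66 and 3.31 in CON. Its difference was 0.59 (SE 0.18, limma adjusted p = 0.271). Of the 13 NADPH and pentose phosphate genes tested, 7 had higher and 6 lower HAY means, and 2 (15.4%) had an unadjusted p under 0.05. Of the 20 genes tested for glutathione turnover and cysteine supply, 0 had one. Among the 31 NRF2 partners and known targets it was 5 (16.1%), and among the 26 other thiol and selenium proteins 5 (19.2%). The share over all tested probes was 13.9%. ME1 and TALDO1 are each counted in both the NADPH and the NRF2 sub-list.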

How the data were processed

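Total RNA of the rumen epithelium was measured on 7 single-colour arrays, 1 calf each. The deposited scanner output gives the intensity of each spot on a linear scale, made with Agilent Feature Extraction 9.5 per the submitters' processing notes. The authors' table of all arrays is on the log2 scale, and its deposited values equalled the log2 scanner signal minus a constant near the array's 75th percentile (SD of the difference at most 0.00224). Its column medians were -3.12, -3.14 and -3.20 in HAY and -3.09, -3.09, -3.08 and -3.11 in CON. Spots were averaged per probe after control and outlier spots were left out, and each array's 75th percentile was subtracted. Probes called well above background on 3 or more arrays were fitted with limma 3.58.1 in R 4.3.3 (lmFit, eBayes), with Benjamini-Hochberg adjustment. The script was tested on simulated data. Member names were matched to a RefSeq table of ARS-UCD2.0 for 58 of 69 probes, and 5 carry another symbol there. These are GSTT3, the first GSTA3 probe, GSTM1, GSTP1 and TXNDC3 (now NME8).

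The members, lists and rule for named genes were chosen with earlier results of these data known. Values on every array are given for the 12 tested members of smallest p and for reference members of each role. Of the other pathway genes, the 6 of smallest p are named. Alternatives covered background correction (normexp), median and quantile scaling, filters, 1 probe per gene, the deposited table, slide column, an intensity trend and left-out calves.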

Additional observations from a re-analysis of the deposited data

Results flagged for a closer look

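In 7 of the 63 CON groups of member probes, 1 of the 4 calves stood apart from the others by Dixon's criterion, and chance flags about 1 group in 20. The share flagged among all tested probes was not counted. The count is therefore not read as a trait of the members. For GSTO2, CON calf 14 was at -6.58 and the other CON calves between -7.51 and -7.44. For GSTM3, the same calf was at 4.24 against 3.31 to 3.35, and for NQO2 at 2.44 against 3.96 to 4.21. CON calf 11 was at -4.88 for TXNDC11, where the others lay between -5.58 and -5.50, and at 0.09 for GLRX5, where they lay between 0.87 and 0.96. For the GSTA3 probe now assigned to GSTA1, CON calf 12 was at 2.59 and the others between 4.69 and 5.09. For the second GSTA3 probe, CON calf 8 was at -7.03 and the others between -5.32 and -5.11.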

How the results depend on the processing

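No member passed an adjusted p of 0.05 in any of the 17 alternative settings. Of 1068 member values under these settings, 934 kept their sign and their side of an unadjusted p of 0.05, and 101 changed sign without a call. The 934 could still differ in size, as GSTA2 did at -2.48 without HAY calf 13 and CON calf 8, against -0.53. An unadjusted p under 0.05 was gained by 21 and lost by 12, and 0 called differences changed sign. MGST2 and GSTT3 stayed under it in all 17, TXNRD1 in 16, NQO1 in 15, GPX7 in 13 and GPX8 in 12. The count of members under it was 11 with the slide column as a block (17.5%, against 14.4% of all tested probes) and 4 to 9 with single calves left out (6.35 to 14.3%, against 7.80 to 18.6%). The median member difference was -0.02 to 0.09 with single calves left out (0.09 without CON calf 14).

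Over all tested probes, an unadjusted p under 0.05 was reached by 747 without HAY calf 13 and CON calf 8, and by 983 to 2343 with single calves left out (989 without HAY calf 10, 983 without HAY calf 13). Probes past the adjusted threshold numbered 4 with quantile normalization, 2 with the slide column block, 5 without both calves, and 1 to 21 with single calves left out (21 without CON calf 14, 7 without HAY calf 9). Those at an unadjusted p under 0.05 split into 854 higher and 902 lower, with median centring into 1239 and 774, and with the slide column block into 665 and 1145. Count changes were not traced to a cause. Calf numbers are not shared between the groups and pair no calves. Signal over background limits GSTO2 and SOD3, which were well above it on 2 of 4 CON arrays. It also limits the second GSTA3 probe, well above it on 2 of 3 HAY arrays.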
